A study of Homo sapiens with 60 samples.

Results

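The AhR battery is here a set of 5 genes, CYP1A1, CYP1B1, TIPARP, AHRR and AHR, chosen by symbol, and all 5 are among the 60675 genes of the deposited table and among the 16763 that were tested. They were followed in HT29, a human colorectal adenocarcinoma cell line, across 60 RNA-seq libraries of 25 groups. Before lysis the cells had spent 24 h with 1 of 8 plant extracts from digestive medicine or with vehicle. Water was the solvent for a pair of multi-herb formulas, Sayeok-tang, which had 3 libraries at each dose, and Bojungikgi-tang, which had 2. Extracts made in 70% ethanol, with 3 libraries at each dose, were Scutellariae Radix (the root of skullcap), Pinelliae Tuber, fresh ginger (labelled Zingiberis Rhizoma Recens) and dried ginger (labelled Zingiberis Rhizoma). Coptidis Rhizoma and Zizyphi Fructus (jujube) were 70% ethanol extracts with 1 library per dose. Low, medium and high doses were 20, 100 and 500 µg/mL, except 12.8, 64 and 320 µg/mL for Coptidis Rhizoma. The vehicle group (n = 3) is labelled 0.1% DMSO. The labels do not say whether replicates were cultured separately, and the p-values therefore rest on a spread between libraries that may be technical.

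The aryl hydrocarbon receptor, encoded by AHR, is a transcription factor that waits in the cytoplasm with HSP90 chaperones, enters the nucleus when it binds a ligand such as a dioxin, a plant flavonoid or a tryptophan metabolite, and pairs there with ARNT on DNA that carries the core GCGTG. CYP1A1 and CYP1B1 encode cytochrome P450 enzymes that oxidise such ligands, TIPARP encodes an ADP-ribosyltransferase that marks the receptor and limits its activity, and AHRR encodes a repressor that competes for ARNT. In the gut, the receptor is known for detoxification and for upkeep of the epithelial barrier.

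Totals per library ranged between 18.02 M and 35.82 M counts with a median of 24.46 M, so CYP1A1, with 5 to 6582 counts per library, was the least precise gene where it was low. For the 5 genes, CPM are counts of a library scaled by its TMM-adjusted total. All 10 colon epithelial markers were present in every library, with a summed level of 8976 to 14331 CPM. KRT8 and KRT18 were the highest of them (medians 5706 and 3559 CPM). CDX1, CDX2 and CEACAM5 were low (medians 1.1, 5.5 and 5.8 CPM). The sum was 5.78 to 17.7 CPM for 9 markers of blood, vessel, fibroblast and liver cells. Among these, PTPRC, CD3E, COL1A2 and ALB had a median of 0. CD68, PECAM1 and COL1A1 had a count in every library (medians 5.9, 1.8 and 1.3 CPM). Of 54 libraries in the joint fit, 3 stood apart in mitochondrial or ribosomal protein share: vehicle replicate 1, Pinelliae Tuber high-dose replicate 2 and Scutellariae Radix low-dose replicate 3. Of the 6 libraries outside the fit, Coptidis Rhizoma low dose lay past the same limit. The vehicle libraries carry their own code in the labels, as do the formulas, the gingers, the Pinelliae Tuber and Scutellariae Radix pair, and the remaining pair, so that a contrast with vehicle cannot be told apart from a contrast of code sets.

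The receptor's core motif was looked for in the 250 bases before each annotated start of the genes (RefSeq, GRCh38.p14), and the window of the first start is shown so that the motif's place can be seen. Entries were found for 4 of the 5 genes, not for CYP1B1. The sequences read 5′ to 3′ on the gene's strand, with GCGTG, or CACGC where it lies on the other strand, in capitals. They cover chr15:74725529-74725778 (minus strand), chr3:156674340-156674589, chr5:321464-321713 and chr7:17298402-17298651 (plus strand).
CYP1A1: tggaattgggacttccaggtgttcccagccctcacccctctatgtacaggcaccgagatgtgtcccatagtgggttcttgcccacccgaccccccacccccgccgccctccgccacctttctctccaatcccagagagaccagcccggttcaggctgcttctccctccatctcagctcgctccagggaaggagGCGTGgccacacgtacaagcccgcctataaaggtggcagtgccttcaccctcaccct
TIPARP, first start: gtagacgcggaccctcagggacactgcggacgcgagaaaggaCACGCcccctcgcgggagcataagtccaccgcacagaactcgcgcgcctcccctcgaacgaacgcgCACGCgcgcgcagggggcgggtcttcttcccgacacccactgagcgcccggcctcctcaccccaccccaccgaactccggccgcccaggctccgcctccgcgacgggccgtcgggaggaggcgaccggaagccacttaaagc
AHRR, first start: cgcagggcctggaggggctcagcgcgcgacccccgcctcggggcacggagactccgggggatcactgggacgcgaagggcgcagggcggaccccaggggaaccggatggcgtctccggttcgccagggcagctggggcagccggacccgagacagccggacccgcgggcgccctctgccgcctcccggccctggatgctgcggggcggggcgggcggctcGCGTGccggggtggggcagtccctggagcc
AHR: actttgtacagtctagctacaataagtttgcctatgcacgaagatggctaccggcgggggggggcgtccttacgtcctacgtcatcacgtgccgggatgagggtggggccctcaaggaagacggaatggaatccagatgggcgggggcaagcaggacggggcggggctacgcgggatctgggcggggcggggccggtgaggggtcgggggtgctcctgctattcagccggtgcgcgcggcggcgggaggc
The CYP1A1 window held 1 motif on the gene's strand, whose first base lay 57 bases before the start. The TIPARP window held 2 on the other strand, at 208 and 142 bases, and the AHRR window 1, at 30 bases. The window of the second AHRR start held 2, at 247 and 42 bases, the windows of the other TIPARP starts held 0, and the AHR window held 0. The motif was in 32.2% of 35116 such windows of all genes, so a match describes the letters only.

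The genes lie far apart in the genome (GENCODE 29, GRCh38): CYP1A1 at chr15:74719542-74725610, CYP1B1 at chr2:38066973-38109902, TIPARP at chr3:156673235-156706770, AHRR at chr5:304176-438291 and AHR at chr7:16916359-17346152. The windows shown above were placed by RefSeq starts. They lie inside these GENCODE spans, only partly so for CYP1A1, because the annotations place the starts differently. CYP1B1, TIPARP, AHRR and AHR overlap other annotated genes, some on the same strand for CYP1B1, AHRR (PDCD6 among them) and AHR. The sources used here do not state how the authors' counting treated strand, and strand alone would not separate same-strand genes. The part of these overlaps in the counts was not tested. Per kb of exon, vehicle cells had 0.0974 CPM of CYP1A1, 7.95 of CYP1B1, 13.7 of TIPARP, 0.663 of AHRR and about 13 of AHR. CYP1A1 per kb was 64.2% of CYP1B1 in Scutellariae Radix medium-dose cells and 90.8% in the Coptidis Rhizoma high-dose library, against 1.22% in vehicle cells.

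CYP1A1 had the widest span of the 5 genes. In bulk RNA, a rise in all cells and a rise in some of them cannot be told apart. Over the 19 replicated groups its highest mean was 600.0 times its lowest, against 10.4 times for CYP1B1, 3.1 times for TIPARP, 1.43 times for AHRR and 1.31 times for AHR. With the single libraries of Coptidis Rhizoma and Zizyphi Fructus these spans were 909, 10.4, 4.31, 1.93 and 1.55 times. In vehicle cells it measured 0.344, 0.168 and 0.493 CPM. With Scutellariae Radix it measured 3.15, 1.93 and 1.61 CPM at the low dose, 183, 187 and 179.7 CPM at the medium dose and 52.2, 51.0 and 49.6 CPM at the high dose. No library of these 3 doses overlapped vehicle, and the medium dose was the highest of them. The log2 fold changes against vehicle were 2.81 ± 0.28 at the low, 9.15 ± 0.19 at the medium and 7.31 ± 0.19 at the high dose (± SE, edgeR quasi-likelihood test, adjusted p = 6e-09, 4.3e-34 and 9.8e-30). Medium exceeded low dose by 6.35 ± 0.15, and high dose lay at -1.84 ± 0.11 against medium dose (adjusted p = 2.7e-16).

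The other 5 extracts with replicates raised CYP1A1 at the high dose, to levels far below those of Scutellariae Radix at its medium and high doses. Dried ginger gave 3.17, 2.79 and 3.12 CPM, and Bojungikgi-tang 1.64 and 1.84 CPM. Pinelliae Tuber gave 0.962, 1.19 and 1.1 CPM, Sayeok-tang 0.913, 0.997 and 1.17 CPM, and fresh ginger 1.12, 1.19 and 0.642 CPM. All these libraries were above all 3 vehicle libraries. The log2 fold changes against vehicle were 3.24 ± 0.26, 2.44 ± 0.31, 1.75 ± 0.32, 1.70 ± 0.33 and 1.62 ± 0.33 in that order. Without vehicle replicate 2, the Sayeok-tang call was lost. At medium and low doses of these 5 extracts no call was made, the nearest being dried ginger medium dose (1.19 ± 0.34, adjusted p = 0.07). CYP1A1 was therefore called in 8 of 18 extract doses by edgeR, and in 10 of 18 every library lay above vehicle, or in 11 with scaling by library total. All 18 doses share the same vehicle libraries, and the share of all genes lying wholly above vehicle was not counted. With only the libraries compared in each edgeR fit CYP1A1 was called in 5, and Scutellariae Radix low dose (2.77, adjusted p = 0.97), Pinelliae Tuber high dose (1.73, 0.58) and Bojungikgi-tang high dose (2.42, 0.055) were not called.

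**Figure D1:**
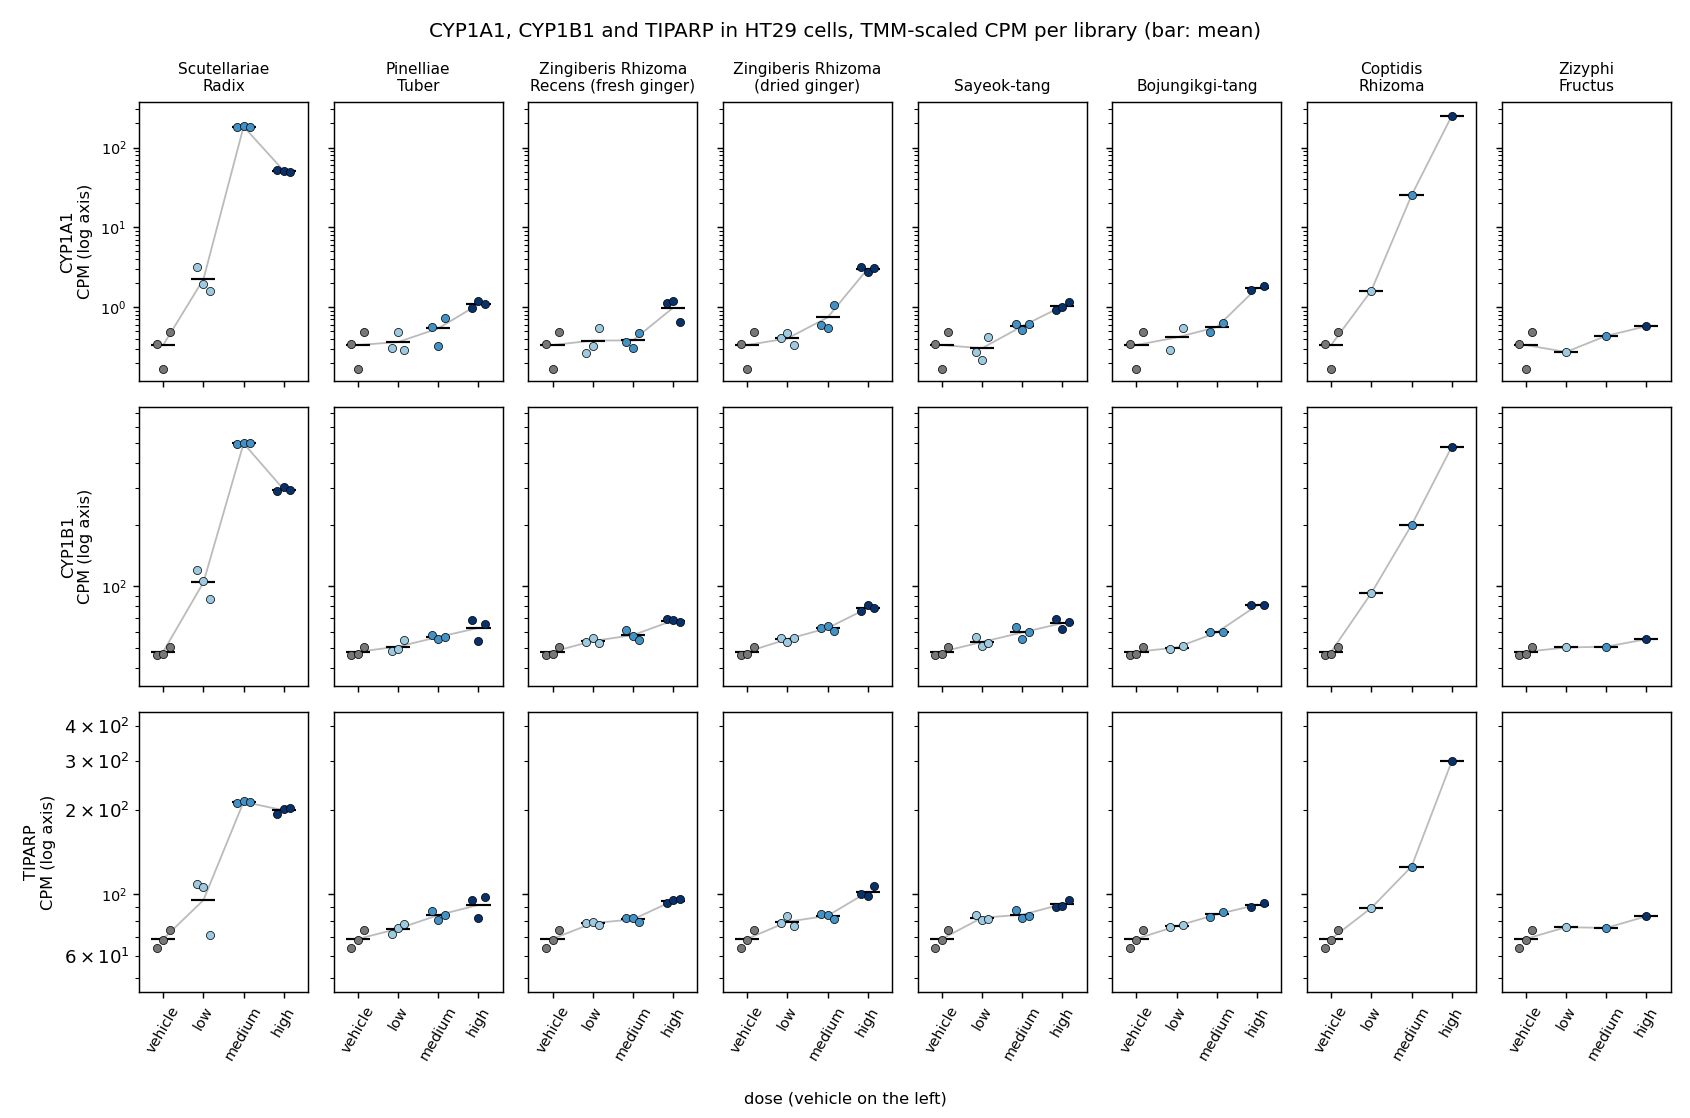
CPM of CYP1A1, CYP1B1 and TIPARP in every library on log axes, by extract, with vehicle, low, medium and high dose from left to right; each point is a library. Scutellariae Radix medium dose sits at 179.7 to 187 CPM for CYP1A1, above its high dose at 49.6 to 52.2 CPM, while Coptidis Rhizoma climbs to 249 CPM.

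CYP1B1 was present in vehicle cells at 46.3, 46.8 and 50.4 CPM. With Scutellariae Radix it measured 120.0, 106 and 86.8 CPM at the low, 497, 498 and 499.6 CPM at the medium and 292, 303 and 294 CPM at the high dose. As for CYP1A1, the medium dose was the highest and no library overlapped vehicle. The log2 fold changes against vehicle were 1.12 ± 0.08, 3.38 ± 0.08 and 2.64 ± 0.08 (edgeR adjusted p = 5.5e-14, 6.8e-32 and 5.5e-28), and high against medium dose was -0.75 ± 0.07 (adjusted p = 3.6e-10).

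CYP1B1 was called in 12 of 18 extract doses by edgeR and 13 by DESeq2, with levels that varied by a median of 2.69% of the mean within a group. These were the high dose of all 6 extracts, the medium dose of all but Pinelliae Tuber, and the low dose of Scutellariae Radix. At the high dose Bojungikgi-tang measured 80.7 and 80.5 CPM (0.75 ± 0.08), dried ginger 75.5, 80.8 and 78.4 CPM (0.71 ± 0.08), and Pinelliae Tuber 68.5, 53.97 and 65.3 CPM (0.39 ± 0.08). The lowest of these, 53.97 CPM, was the Pinelliae Tuber library that stood apart, and it was above vehicle by TMM scaling but not by library total, where it had 47.39 CPM against 44.34, 46.54 and 49.88 CPM in vehicle cells. The medium-dose changes of Sayeok-tang, Bojungikgi-tang and fresh ginger were small (0.31, 0.31 and 0.27), and each call was lost without vehicle replicate 1 or 2. The first was also lost without Sayeok-tang medium-dose replicate 1 or 3, and the others without any 1 library of their own dose. The dried ginger medium-dose call (0.38) was lost without vehicle replicate 1. With only the libraries compared CYP1B1 was called in 7 of 18, and Scutellariae Radix low dose (adjusted p = 0.79) and Pinelliae Tuber high dose (adjusted p = 0.78) were among those not called.

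TIPARP had 64.0, 68.7 and 74.6 CPM in vehicle cells. With Scutellariae Radix it had 108, 106 and 71.2 CPM at the low, 212, 214 and 214 CPM at the medium and 194, 201 and 203 CPM at the high dose. The low-dose value of 71.2 CPM was replicate 3, which stood apart, and it lay inside the vehicle range. The log2 fold changes were 0.46 ± 0.08, 1.63 ± 0.08 and 1.53 ± 0.08 (edgeR adjusted p = 0.0015, 1.3e-19 and 6.1e-19), and without the 3 libraries that stand apart the low-dose change was 0.59. Unlike the P450 genes, TIPARP was not called between the high and the medium dose (-0.10 ± 0.08, 95% interval -0.26 to 0.06).

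TIPARP was called in 9 of 18 extract doses: the high dose of all 6 extracts, both lower doses of Scutellariae Radix, and Pinelliae Tuber medium dose (0.28 ± 0.08, adjusted p = 0.048, and 0.056 with a replicate block). Beyond Scutellariae Radix the high-dose changes ran from 0.40 (Bojungikgi-tang and Pinelliae Tuber) to 0.56 (dried ginger). In 16 of 18 doses every library exceeded vehicle, and in 15 with scaling by library total, with no share over all genes counted. The Bojungikgi-tang high-dose call was lost without vehicle replicate 1 or 2 or either of its own libraries, and the Pinelliae Tuber medium-dose call without these vehicle libraries or any of its own. With only the libraries compared, Scutellariae Radix low dose (adjusted p = 1.0), Pinelliae Tuber high dose (0.78) and Bojungikgi-tang high dose (0.12) were not called. The count was 14 by DESeq2, 14 without vehicle replicate 3 or Pinelliae Tuber high-dose replicate 2, and 16 without Scutellariae Radix low-dose replicate 3. Over all genes the number called also shifted past a fixed fold limit, in 29 of 62 comparisons by DESeq2 and 187 of 372 with 1 library left out.

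AHR itself measured 136, 142 and 137 CPM in fresh ginger cells at the medium dose and 128, 136 and 136 CPM at the high dose. Dried ginger cells had 131, 132 and 132 CPM at the high dose, and vehicle cells 93.1, 108 and 115 CPM. These 3 extract doses were the called ones, with log2 fold changes of 0.39, 0.34 and 0.33 ± 0.10 in that order (edgeR adjusted p = 0.041, 0.039 and 0.03), and no library of them overlapped vehicle. Each call was lost without vehicle replicate 1 or 2 or any library of its own group, and the medium-dose call also with only the libraries compared (adjusted p = 0.052). All 18 fold changes were above 0, from 0.10 to 0.39, but they share the same vehicle libraries and are not separate observations. In 13 of 18 doses every library lay above vehicle, with no share over all genes counted. Some doses without a call had changes of similar size, such as fresh ginger low dose (0.34) and Sayeok-tang high dose (0.31). Between high and low dose of an extract AHR changed by only -0.01 to 0.07. The lowest vehicle library was replicate 1, which stood apart. Scutellariae Radix medium dose, where CYP1A1 was highest among replicated groups, had 114, 111 and 114 CPM of AHR (0.11 ± 0.10, adjusted p = 0.56).

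AHRR, at 4.86, 5.81 and 4.59 CPM in vehicle cells, was called in 0 of 18 extract doses by edgeR and 0 by DESeq2, with 2 at an unadjusted p under 0.05. Its fold changes against vehicle ran from -0.33 to 0.19. With Scutellariae Radix it measured 4.10, 5.07 and 3.44 CPM at the low, 5.93, 6.23 and 5.29 CPM at the medium and 5.26, 5.25 and 4.78 CPM at the high dose. Medium against low dose was called (0.46 ± 0.13, adjusted p = 0.026), and the call was lost without the 3 libraries that stand apart (0.34, adjusted p = 0.14), with only the libraries compared (adjusted p = 0.78), and without Scutellariae Radix medium-dose replicate 1 or 2 or low-dose replicate 3.

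**Figure D2:**
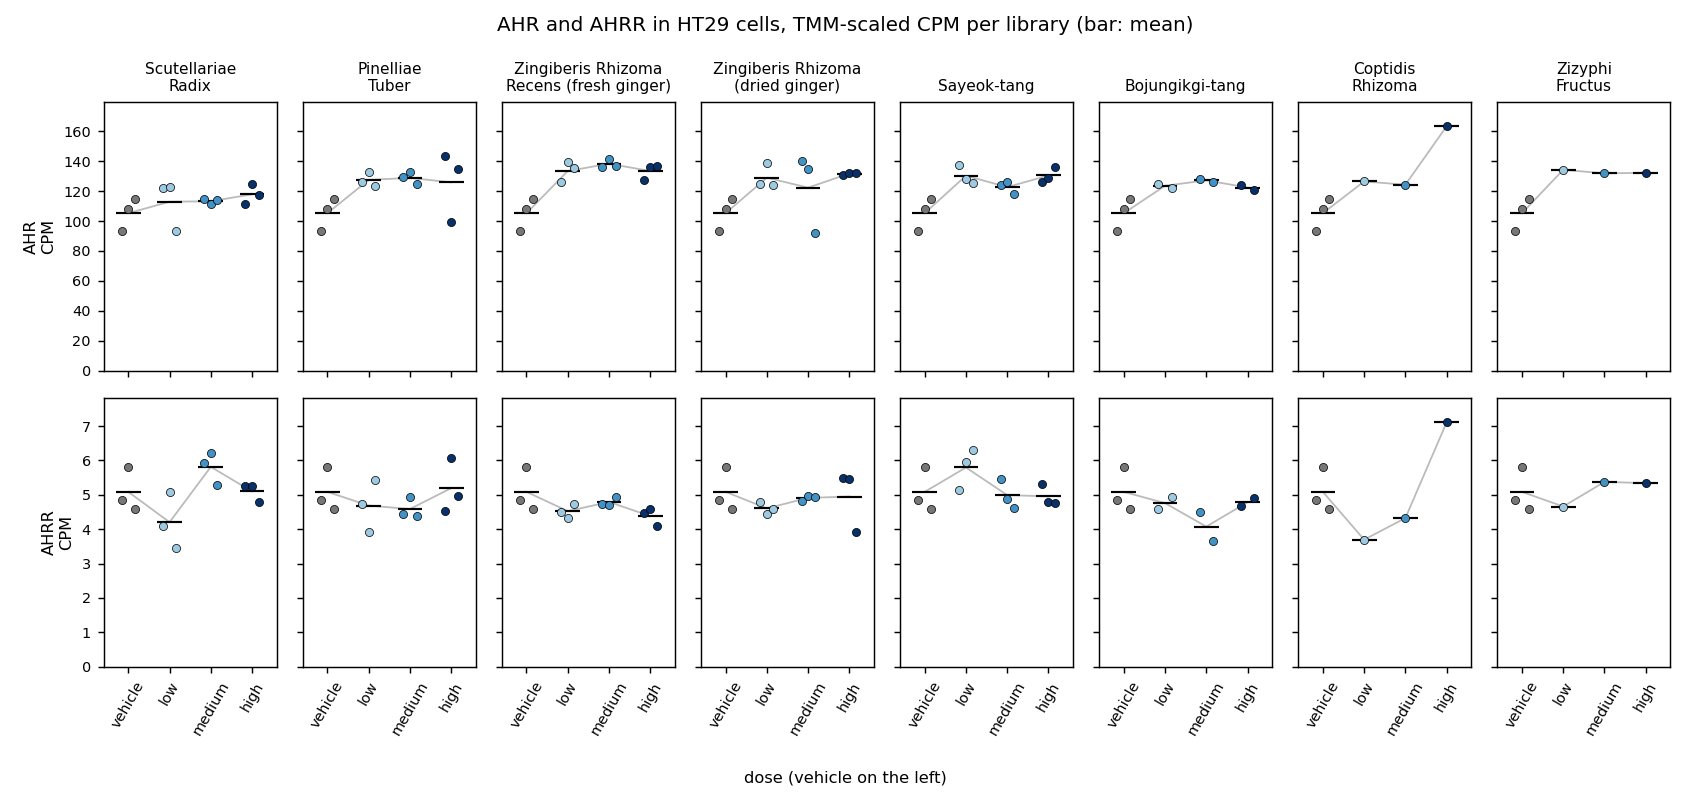
CPM of AHR and AHRR in every library by extract, on linear axes from 0, with vehicle, low, medium and high dose from left to right; each point is a library. AHR lies between 91.8 and 163 CPM and AHRR between 3.44 and 7.11 CPM.

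The share of all 16763 tested genes called higher against vehicle sets these counts in context. At the low, medium and high dose it was 1.59%, 0.453% and 1.26% with Sayeok-tang, 0.239%, 0.787% and 0.334% with Bojungikgi-tang, and 1.35%, 0.823% and 2.99% with fresh ginger. It was 0.758%, 0.412% and 6.79% with dried ginger, 0.209%, 4.9% and 11.4% with Scutellariae Radix, and 0.245%, 1.05% and 2.23% with Pinelliae Tuber. At the high dose of all 6 extracts CYP1A1, CYP1B1 and TIPARP were all called higher.

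**Figure D3:**
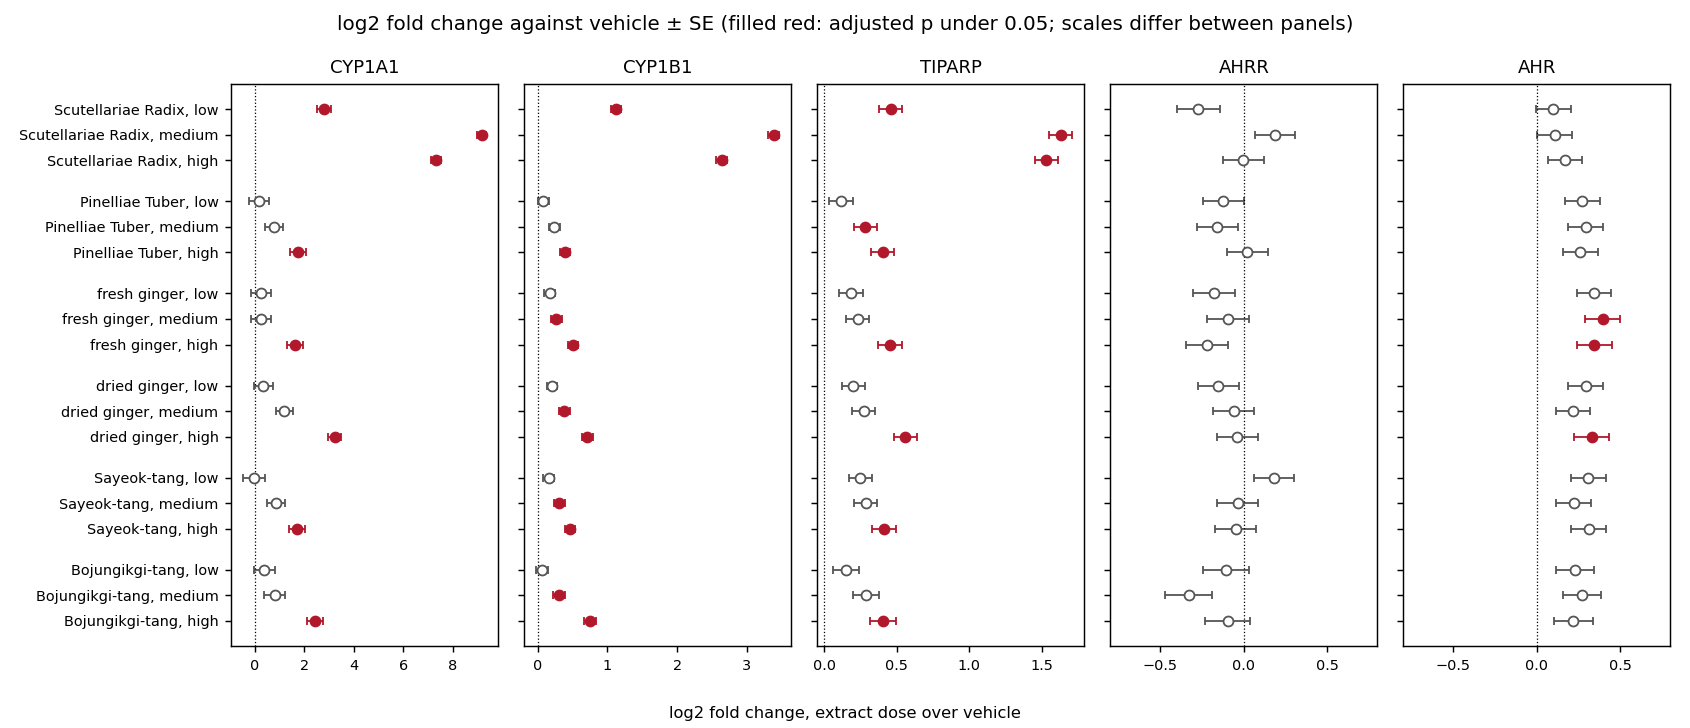
Log2 fold change against vehicle of the 5 genes in 18 extract doses, with SE bars; filled red points were called at an adjusted p under 0.05. CYP1A1 reaches 9.15 and CYP1B1 3.38 at Scutellariae Radix medium dose, and no AHRR point is filled.

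Between doses, CYP1A1 rose at the high dose against the low dose in 6 of 6 extracts, by 1.37 to 4.5 on the log2 scale. CYP1B1 rose in 5 of 6, all but Sayeok-tang (0.31 ± 0.08, adjusted p = 0.053), TIPARP in 2 of 6 (Scutellariae Radix 1.07 ± 0.08 and dried ginger 0.36 ± 0.08), and AHRR and AHR in 0 of 6 by edgeR and DESeq2, with 1 and 0 at an unadjusted p under 0.05. Of all genes, 0.0954% rose in this comparison with Sayeok-tang, 0.0477% with Bojungikgi-tang, 0.185% with fresh ginger, 2.3% with dried ginger, 10.7% with Scutellariae Radix and 1.16% with Pinelliae Tuber. The CYP1A1 call was lost in Sayeok-tang without low-dose replicate 1 or 2 or high-dose replicate 3, in Bojungikgi-tang without low-dose replicate 2 or high-dose replicate 3, in fresh ginger without replicate 1 or 2 of either dose, and in Pinelliae Tuber without low-dose replicate 1 or 3. The CYP1B1 call was lost in fresh ginger without any 1 of the 6 libraries and in Pinelliae Tuber without low-dose replicate 1 or 2. With only the libraries compared, Pinelliae Tuber lost both calls (adjusted p = 0.83 each) and fresh ginger the CYP1A1 call (0.07). Without the 3 libraries that stand apart, TIPARP was called in 6 of 6. Over all genes the number called also shifted past a fixed fold limit in 46 of 60 comparisons without them.

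Of the 12 steps between neighbouring doses, edgeR called members in 3. DESeq2 called CYP1A1 in 6 of the 12, against 3 by edgeR, and CYP1B1 in 4, against 3. Beside both Scutellariae Radix steps, dried ginger high dose exceeded its medium dose for CYP1A1 (2.05 ± 0.22), CYP1B1 (0.33 ± 0.08) and TIPARP (0.29 ± 0.08). The TIPARP call was lost without any 1 of the 6 libraries and with a replicate block within each code set (adjusted p = 0.051). The share of genes called in either direction between high and medium dose was 0.0179% for Sayeok-tang, 0.167% for fresh ginger, 3.23% for dried ginger, 3.53% for Scutellariae Radix, 0.322% for Pinelliae Tuber and 0.0% for Bojungikgi-tang. Between medium and low dose it was 4.24% for Scutellariae Radix, 0.0358% for Pinelliae Tuber and 0.0% for the other 4. In the 5 steps at 0.0%, 268 to 491 genes had an unadjusted p under 0.05, and DESeq2 called 0 to 2.

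Within a code set, extracts can be compared at the same dose without vehicle. Scutellariae Radix exceeded Pinelliae Tuber in CYP1A1 by 2.63 ± 0.28, 8.38 ± 0.18 and 5.56 ± 0.16 and in CYP1B1 by 1.04 ± 0.07, 3.14 ± 0.08 and 2.25 ± 0.08 at the low, medium and high dose. TIPARP differed at the medium (1.35 ± 0.08) and high dose (1.13 ± 0.08). With only the libraries compared, both low-dose calls were lost (adjusted p = 0.92 each), as was the TIPARP call of Scutellariae Radix medium against low dose (0.16). Fresh ginger was below dried ginger at the high dose in CYP1A1, with -1.61 ± 0.21 (edgeR adjusted p = 1.2e-06). No other call was made in the gingers. CYP1B1 lay at -0.20 at the high dose (interval -0.36 to -0.05) and CYP1A1 at -0.93 at the medium dose (interval -1.61 to -0.24). Sayeok-tang against Bojungikgi-tang gave no call, with CYP1A1 at -0.74 (interval -1.26 to -0.22) at the high dose. Of all genes, 0.0418%, 3.05% and 22.8% were called between Scutellariae Radix and Pinelliae Tuber at the low, medium and high dose, 2.26% between the gingers at the high dose and 0.00597% between the formulas at the high dose, and 0.0% in the 4 lower-dose pairs of gingers and formulas, where 239 to 440 had an unadjusted p under 0.05 and DESeq2 called 0 to 2.

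A difference in the dose response itself was called in 1 of 3 pairs tested. The change from low to high dose was larger with Scutellariae Radix than with Pinelliae Tuber by 2.92 ± 0.42 for CYP1A1, 1.21 ± 0.11 for CYP1B1 and 0.79 ± 0.11 for TIPARP (edgeR adjusted p = 3e-06, 1.8e-11 and 2.4e-06), where 9.58% of genes were called. Without the 3 libraries that stand apart the differences were 2.83, 0.99 and 0.54, all called. TIPARP was not called there with only the libraries compared (0.80, adjusted p = 0.15). For the gingers (0.644% of genes) CYP1A1 gave -1.52 ± 0.46 (edgeR adjusted p = 0.18, 95% interval -2.45 to -0.58). For the formulas (0.0%, with 295 genes at an unadjusted p under 0.05 and 0 by DESeq2) CYP1A1 gave -0.31 ± 0.53. CYP1B1 gave -0.38 there (interval -0.62 to -0.14). The intervals are not adjusted over genes, and a missing call does not show equal dose responses.

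Across code sets at the high dose, Scutellariae Radix stood above the other replicated extracts. Sayeok-tang, Bojungikgi-tang, fresh ginger and dried ginger lay at -5.61, -4.87, -5.68 and -4.07 against it for CYP1A1, at -2.17, -1.88, -2.13 and -1.92 for CYP1B1 and at -1.12, -1.13, -1.08 and -0.97 for TIPARP, all called. Dried ginger exceeded Pinelliae Tuber in CYP1A1 (1.48 ± 0.21) and CYP1B1 (0.32 ± 0.08), and both formulas were below dried ginger in CYP1A1 (-1.54 for Sayeok-tang and -0.80 for Bojungikgi-tang). Bojungikgi-tang exceeded Pinelliae Tuber in CYP1B1 (0.36 ± 0.08). Without either Bojungikgi-tang library, both of the smaller Bojungikgi-tang calls were lost. That against dried ginger was also lost without dried ginger high-dose replicate 1 or 3. Both CYP1B1 calls against Pinelliae Tuber were lost without Pinelliae Tuber high-dose replicate 2, and with only the libraries compared (adjusted p = 0.99 for Bojungikgi-tang and 0.51 for dried ginger). Genes called in these comparisons made up 0.292%, 2.36%, 9.23% and 2.15% for Sayeok-tang against fresh ginger, dried ginger, Scutellariae Radix and Pinelliae Tuber, 0.304%, 2.29%, 8.44% and 0.597% for Bojungikgi-tang against the same 4, 7.82% and 3.19% for fresh ginger against Scutellariae Radix and Pinelliae Tuber, and 4.6% and 10.8% for dried ginger against these.

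Coptidis Rhizoma, with 1 library per dose and no replicate check, was the other extract with high levels. Its low, medium and high-dose libraries had 15.22%, 6.61% and 3.44% of counts from mitochondrial genes and 5.18%, 5.1% and 6.69% from ribosomal protein genes, against medians of 7.27% and 5.62% over all libraries. The mitochondrial share was lower at each higher dose, and its part in the levels was not tested. CYP1A1 measured 1.61, 25.1 and 249 CPM at 12.8, 64 and 320 µg/mL (27, 500 and 6582 counts), CYP1B1 92.5, 199 and 479 CPM and TIPARP 89.2, 125 and 298 CPM. The 95% Poisson intervals, which cover counting error only, were 1.06 to 2.34, 23.0 to 27.4 and 243 to 255 CPM for CYP1A1. All these values were above every vehicle library, and each gene was highest at the highest dose, 320 µg/mL. With Scutellariae Radix, CYP1A1 and CYP1B1 were highest at the medium dose, and TIPARP was not called between medium and high dose. The doses of these extracts differ, so the shapes of their dose responses are not compared. In the Coptidis Rhizoma libraries, AHR was 126, 124 and 163 CPM and AHRR 3.69, 4.32 and 7.11 CPM from low to high dose. With its doses pooled against vehicle, edgeR called 0 of the 5 genes, with or without the low-dose library (CYP1A1 8.15 ± 1.90, adjusted p = 0.4, with 0.0265% of 15114 genes called), and DESeq2 called 2. The doses stood as replicates in this fit, so differences between doses counted as error. A missing call there does not show an unchanged gene. Zizyphi Fructus libraries had 0.274, 0.436 and 0.576 CPM of CYP1A1 at 20, 100 and 500 µg/mL, and AHR was called with its doses pooled (0.33 ± 0.07, adjusted p = 0.045, 2.78% of 15318 genes). That call, from a fit that also took the doses as replicates, was lost without vehicle replicate 2 or any Zizyphi Fructus library.

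Across the 25 group means, CYP1A1, CYP1B1 and TIPARP ran in parallel, as a description over groups that share libraries, depth and the vehicle. Pearson's r of log2 CPM was 0.99 for CYP1A1 and CYP1B1 and 0.97 for each with TIPARP, and 0.93, 0.89 and 0.92 over the 19 groups without Scutellariae Radix and Coptidis Rhizoma. CYP1A1 had an r of 0.43 with AHRR and 0.09 with AHR over the 25 groups, and -0.04 and 0.04 over the 19. Beyond the 5 genes, those most like CYP1A1 included SLC22A3, an organic cation transporter (0.965), those most like CYP1B1 included ALDH1A3 (0.962) and ADGRF1 (0.961), and EREG followed TIPARP (0.958). The gene most like AHR was DDX17 (0.913) and that most like AHRR was ATP6V0A1 (0.776).

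**Figure D4:**
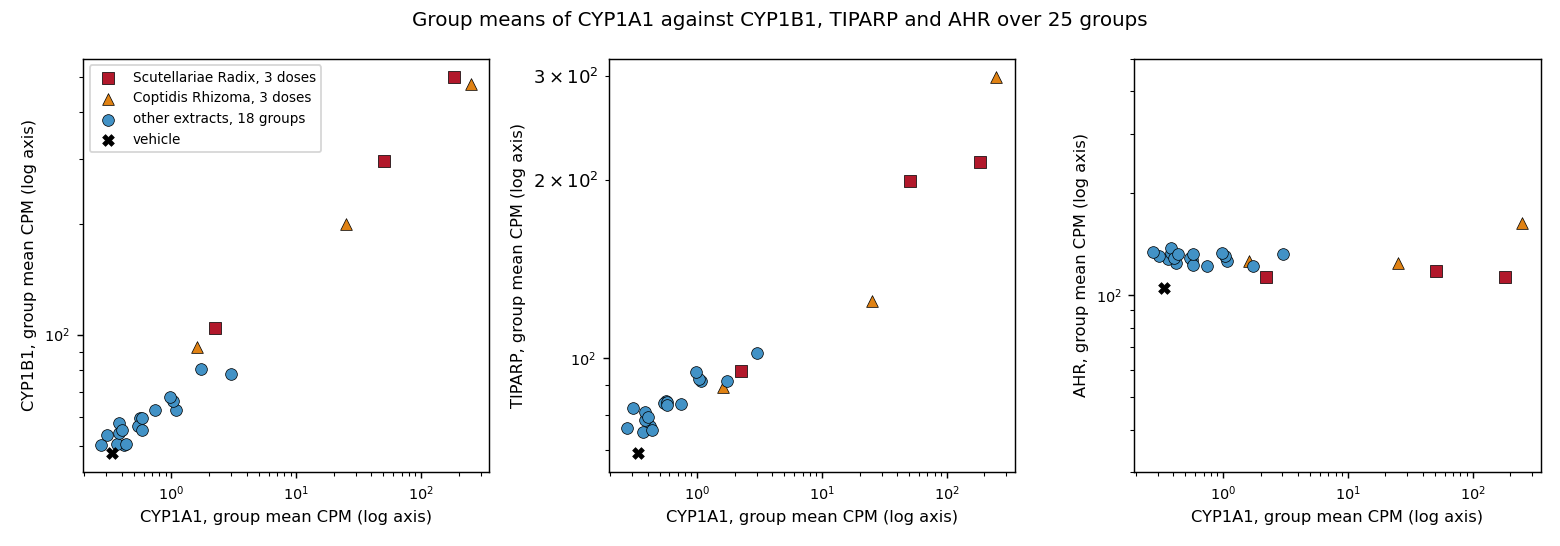
Mean CPM of CYP1A1 against CYP1B1, TIPARP and AHR in 25 groups, both axes logarithmic; each point is a group. CYP1B1 and TIPARP climb with CYP1A1 (r of 0.99 and 0.97), while AHR does not (0.09).

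Other genes known as receptor targets in the literature were listed, and 14 of 20 were tested. The list was chosen with earlier results of these data known, so its counts are a description and not independent support. With Scutellariae Radix 9 of 14 rose and 0 fell at the high and at the medium dose, where 11.4% and 4.9% of all genes rose, with a median log2 fold change of 0.44 in both, against -0.02 over all genes. At the medium dose the retinaldehyde dehydrogenase ALDH1A3 rose by 2.59 ± 0.07, the aldehyde dehydrogenase ALDH3A1 by 1.36 ± 0.10, the growth factor EREG by 1.32 ± 0.11 and the glucuronosyltransferase UGT1A6 by 0.77 ± 0.07. UGT1A6 and UGT1A1 share exons, so their reads can be split between them. Like the P450 genes, ALDH1A3 was lower at the high than at the medium dose (-1.46 ± 0.07), as was the cyclooxygenase PTGS2 (-0.48 ± 0.09), while the amino acid transporter SLC7A5 was higher (0.37 ± 0.08). At the low dose, where 0.209% of all genes rose, 1 of 14 did, ALDH1A3 (0.70 ± 0.07).

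At the high dose of dried ginger 7 of 14 rose, where 6.79% of all genes did. They were led by ALDH3A1 (1.58 ± 0.10), ABCG2, an efflux transporter (0.85 ± 0.09), UGT1A6 (0.79 ± 0.07) and NQO1, a quinone reductase (0.74 ± 0.08). ALDH1A3 was not among them. Of the 10 colon epithelial markers 2 were higher and 3 lower at the high dose of dried ginger and likewise of Scutellariae Radix. Of all genes, 6.79% were higher and 6.33% lower with dried ginger, and 11.4% and 12.1% with Scutellariae Radix. The part of these marker changes in the target genes was not tested. Counts of target genes that rose at the high dose were 6 with fresh ginger and 3 each with Sayeok-tang, Bojungikgi-tang and Pinelliae Tuber, and 0 fell in any of these. Of all genes, 2.99%, 1.26%, 0.334% and 2.23% rose in that order. At every other dose beyond Scutellariae Radix the count was 0 or 1, where 0.239% to 1.59% of all genes rose. Medians were 0.24 with dried ginger, 0.15 with fresh ginger, 0.10 with Sayeok-tang, 0.16 with Bojungikgi-tang and 0.13 with Pinelliae Tuber, with all genes between -0.01 and 0.01.

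**Figure D5:**
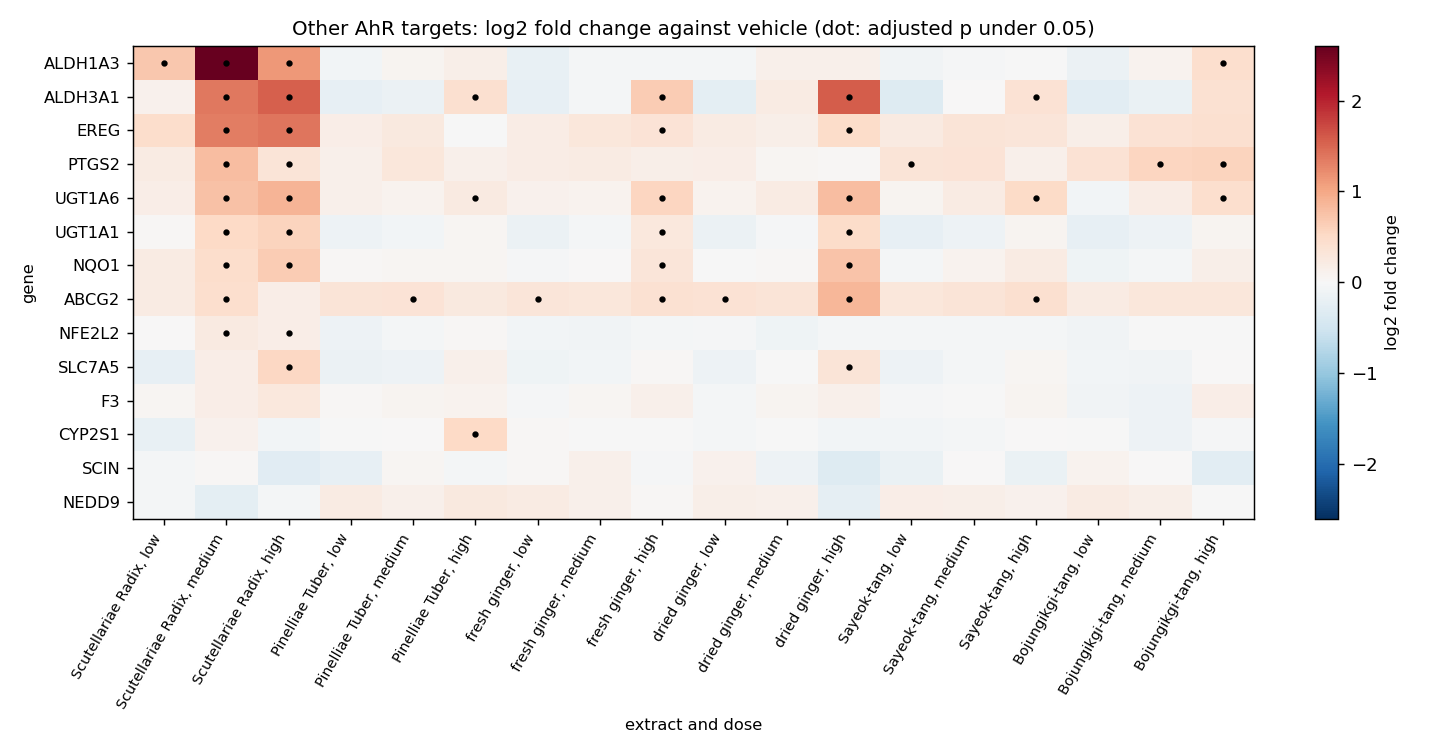
Log2 fold change against vehicle of 14 other receptor targets in 18 extract doses as colour, with a dot where the gene was called. Scutellariae Radix at the high and medium dose has 9 dots each and dried ginger high dose 7.

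Another list held genes around the receptor: ARNT, other transcription factors, chaperones, coactivators and turnover genes. Of 18 tested, 3 rose with Scutellariae Radix at the high dose, where 11.4% of all genes did. These were the transcription factors HIF1A (0.46 ± 0.08) and ARNTL (0.40 ± 0.10), and PTGES3, the co-chaperone p23 (0.26 ± 0.08). A count of 3 in 18 is near that share and does not set the list apart from all genes. Of all genes 12.1% were lower at this dose, and the number lower in the list is not given here. The same 3 rose at the medium dose, where 4.9% of all genes did, with 0 lower. With dried ginger at the high dose, where 6.79% of all genes rose, HIF1A did (0.30 ± 0.08). With Pinelliae Tuber at the high dose, where 2.23% of all genes rose and 2.89% fell, ARNTL rose (0.47 ± 0.10) and HSP90AB1 fell by 0.18 ± 0.05. Of 12 tested genes that make or clear tryptophan-derived ligands, QPRT, which feeds quinolinate into NAD synthesis, was lower at the high dose of all 6 extracts, at -0.39 to -0.89. Of all genes, 1.58% were lower there with Sayeok-tang, 0.292% with Bojungikgi-tang, 3.36% with fresh ginger, 6.33% with dried ginger, 12.1% with Scutellariae Radix and 2.89% with Pinelliae Tuber. IL4I1, an amino acid oxidase, was higher in all 6 doses of the water formulas, by 1.55 to 2.17, where 0.239% to 1.59% of all genes rose. Both formulas lie in 1 code set apart from vehicle, so formula and code set cannot be told apart here. Its changes with the other extracts, and the other genes of this list, are not described here.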

How the data were processed

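Total RNA was sequenced as 100 bp paired reads. The authors deposited expected counts per Ensembl gene, made with RSEM 1.3.3 after alignment by STAR 2.7.3a, trimming by Trim Galore 0.6.5 and FastQC 0.11.9, tools named without order in the submitters' processing notes. The sources used here do not state the annotation release or the strand setting. The DMSO of the vehicle is 0.1% in the sample labels and 2% in the series text. Expected counts were rounded to whole numbers (as deposited, 74.4% to 77.2% of the values above 0 in a library were exactly whole), and 210 other columns were not used.

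The 54 libraries of the 19 groups with 2 or 3 libraries entered a joint model in edgeR 4.0.16 with filterByExpr by group, TMM, a trended dispersion and the robust quasi-likelihood test. Calls were made at 0.05 after Benjamini-Hochberg adjustment over 16763 genes, with 35 residual degrees of freedom. The SE is the log2 fold change over the root of F. Extracts with 1 library per dose were pooled over 3 doses against vehicle, so that differences between doses entered the error of that fit. A library stands apart where its share of mitochondrial or of ribosomal protein counts lies over 10 median absolute deviations from the median of the 54. Coptidis Rhizoma low dose, outside the fit, also lies past this limit. The alternatives were DESeq2 1.42.0, the size factors of DESeq2 in edgeR, all genes with a count, separate fits of the groups compared, a replicate block, dropping those that stand apart, and dropping each library in turn. The scripts were tested on simulated data.

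The members, lists and tests were chosen with earlier results of these data known. Up to 4 genes per list and comparison with the smallest p are named, and for each member genes with the highest r among those with a mean log2 CPM above 2.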

Additional observations from a re-analysis of the deposited data

Results flagged for a closer look

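The change from low to high dose differed between Scutellariae Radix and Pinelliae Tuber, by a test of the difference itself, for 3 of the 5 genes. Of all tested genes, 9.58% were called in this test. The difference was 2.92 on the log2 scale for CYP1A1, 1.21 for CYP1B1 and 0.79 for TIPARP. With only the libraries compared in the edgeR fit, TIPARP was not called (0.80, adjusted p = 0.15). Scutellariae Radix low-dose replicate 3 and Pinelliae Tuber high-dose replicate 2, which stood apart, are among these 12 libraries.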

How the results depend on the processing

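With separate fits of the libraries compared, CYP1A1 was called in 5 of 18 extract doses against vehicle in place of 8, CYP1B1 in 7 in place of 12 and AHR in 5 in place of 3, TIPARP rose in 5 of 6 extracts between high and low dose in place of 2, and AHRR and AHR were each called in 1 of 9 same-dose pairs in place of 0. Without the 3 libraries that stand apart, the counts against vehicle were 16 for TIPARP in place of 9 and 5 for AHR, TIPARP was called in 6 of 6 extracts between doses, and 5 same-dose pairs were called for CYP1B1 in place of 3 and 1 for AHRR. DESeq2 called TIPARP in 14, CYP1B1 in 13, AHR in 5, CYP1A1 in 6 of 12 steps between neighbouring doses in place of 3 and, for Coptidis Rhizoma pooled, 2 of the 5 genes in place of 0. Without the low-count filter AHR was called in 9. The number of all genes called shifted too, up or down past a fixed fold limit, in 50 of 60 comparisons with separate fits. It did so in 46 of 60 without the 3 libraries, 42 of 62 without the low-count filter and 29 of 62 with DESeq2. With 1 library left out it did so in 187 of 372. The counts of the 5 genes are not set against those of all genes here. The cause of these shifts was not tested. Leaving out each library in turn gave 7 to 9 calls of 18 for CYP1A1, 8 to 15 for CYP1B1, 7 to 16 for TIPARP and 0 to 9 for AHR. AHR had 0 calls without vehicle replicate 1 or 2, and 5 to 9 without vehicle replicate 3, dried ginger medium-dose replicate 3, Pinelliae Tuber high-dose replicate 2 or Scutellariae Radix low-dose replicate 3. Between high and low dose it gave 2 to 4 of 6 for TIPARP and 0 to 1 for AHRR, and 0 to 2 of the 5 genes for Zizyphi Fructus. A Bojungikgi-tang group left with 1 library is assumed to vary like the other groups.

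With the replicate block TIPARP was called in 8 of 18 doses, and the other counts against vehicle were 8 for CYP1A1, 12 for CYP1B1, 0 for AHRR and 3 for AHR. The numbers were not taken to pair the samples: over all tested genes 0 of 57 comparisons had every same-numbered correlation above 0.1. Over 11067 genes with a mean log2 CPM above 2, a check added after seeing the data, 5 did. Scaling by library total moved no group mean by more than 6.92%. Every library then lay above vehicle in 11 doses in place of 10 for CYP1A1, with no share over all genes counted. For CYP1B1 and for TIPARP it was 15 doses in place of 16. No called fold change of the 5 genes reversed its sign under any alternative run. Depth limits CYP1A1 most, with 6 to 13 counts in the vehicle libraries.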
